A study of Homo sapiens with 5 samples.

Results

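Keratin genes were chosen as the protein-coding genes whose symbol is KRT followed by a number and an optional letter, and they numbered 55 of 20163 protein-coding genes. Each gene was given a window from 5 kb upstream of its transcription start site (TSS) to its end, and the ChIP-seq peaks of ATF3 and p53 in these windows were examined. The 4 keratins of colon epithelium (KRT8, KRT18, KRT19 and KRT20) were compared with the 51 others. The peak lists hold no expression values, so the grouping by colon expression could not be checked in these cells.

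All libraries came from HCT116, a human colon cancer cell line, with 1 library per condition. The ATF3 libraries were ATF3-Ctrl (ATF3-WT cells, DMSO), ATF3-CPT (ATF3-WT cells, 1.5 uM camptothecin, a topoisomerase I poison) and ATF3-KO (ATF3-KO cells, DMSO, a line derived from targeted single clones). The p53 libraries were p53-CPT (p53-WT cells, 1.5 uM camptothecin) and p53-KO (p53-KO cells, DMSO), so genotype and treatment cannot be told apart between the p53 libraries. Treatments lasted 4 h, and all cells were crosslinked with 1 mM of DSG and with formaldehyde.

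Keratins are intermediate filament proteins that pair as a type I (acidic) and a type II (basic) chain. In human, the type II genes lie in a cluster on chromosome 12, where the type I gene KRT18 also sits beside its partner KRT8, and the other type I genes lie on chromosome 17. Which pair is made is characteristic of the epithelium: KRT8 and KRT18 in simple epithelia such as colon, other pairs in the layers of the epidermis, in wounded skin and in hair. ATF3 is a stress-induced bZIP transcription factor that binds the AP-1 core as a partner of JUN proteins and the related ATF/CRE core.

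The sequences under the keratin peaks that the results turn on are shown first. Each is the plus strand of GRCh37 (the build of hg19), read 5′ to 3′, and is the whole ATF3-CPT peak. Capitals mark the AP-1 core (TGAGTCA, or TGACTCA on the other strand). In the KRT86 peak, which held no AP-1 core, they mark a composite C/EBP-ATF element (TGATGNAAT, here on the minus strand), a site type known from amino acid response genes. A sequence without capitals held none of these. The strongest keratin peak lay in intron 2 of KRT86 (chr12:52674148-52674272).
KRT86: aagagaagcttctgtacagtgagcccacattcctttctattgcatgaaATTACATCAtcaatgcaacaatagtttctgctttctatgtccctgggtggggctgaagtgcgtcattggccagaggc
The strongest peak at a keratin promoter lay 334 bp upstream of KRT80 (chr12:52586070-52586194).
KRT80: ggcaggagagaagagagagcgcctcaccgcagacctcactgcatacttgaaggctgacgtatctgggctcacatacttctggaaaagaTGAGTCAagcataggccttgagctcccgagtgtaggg
The peak in intron 1 of KRT18 (chr12:53343646-53343770) had the largest CPT to Ctrl ratio.
KRT18: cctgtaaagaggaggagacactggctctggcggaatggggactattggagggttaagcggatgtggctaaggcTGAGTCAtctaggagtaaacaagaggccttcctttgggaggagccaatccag
The peak 2.04 kb upstream of KRT19 (chr17:39686535-39686659) was the highest of those listed in CPT and not in Ctrl.
KRT19: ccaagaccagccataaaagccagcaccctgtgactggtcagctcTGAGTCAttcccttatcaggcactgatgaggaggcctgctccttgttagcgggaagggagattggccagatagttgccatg
The only peak of KRT20 lay 1.08 kb upstream of its start (chr17:39042516-39042640).
KRT20: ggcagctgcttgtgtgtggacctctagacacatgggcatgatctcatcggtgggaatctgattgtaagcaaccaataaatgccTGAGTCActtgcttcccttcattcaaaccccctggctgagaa
The peak 3.41 kb upstream of KRT6A (chr12:52890386-52890510) was the highest at a wound keratin.
KRT6A: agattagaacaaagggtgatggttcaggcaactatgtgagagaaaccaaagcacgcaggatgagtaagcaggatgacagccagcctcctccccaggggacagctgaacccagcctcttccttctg
The peak 4.87 kb upstream of KRT9 (chr17:39733122-39733246) held 2 AP-1 cores.
KRT9: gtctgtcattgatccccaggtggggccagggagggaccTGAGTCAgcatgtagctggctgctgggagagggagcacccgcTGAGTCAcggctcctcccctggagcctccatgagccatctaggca

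The libraries held from 1984941 (p53-KO) to 15457013 tags (ATF3-CPT), and the lists held from 2231 (ATF3-KO) to 70702 peaks (ATF3-CPT). Peak levels below are normalized tag counts, which are tags per 10000000 tags of the library, with 95% intervals that cover counting error only, since there is no replicate. Peaks were listed from a score (tags, each position counted once) of 9 in ATF3-Ctrl and in ATF3-CPT. Taken as tags, 9 correspond to 6.95 and 5.82 normalized tags, and because score and tag count differ, the lowest keratin peaks listed were at 6.2 and 5.2. The p53 libraries were shallower, and their thresholds correspond to 22.1 (p53-CPT) and 30.2 (p53-KO) normalized tags. Peaks held 5.6% of the tags in ATF3-Ctrl and 12.76% in ATF3-CPT. Over all ATF3 peaks found in both libraries, the median CPT to Ctrl ratio was 1.8. A ratio interval above 1 thus does not by itself set a site apart from ATF3 peaks in general.

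ATF3 peaks were found at 34 of the 55 keratin genes in Ctrl or CPT, and at none in ATF3-KO cells. In ATF3-Ctrl 16 keratin genes (29.1%) had a peak, against a background of 57.5% of all protein-coding genes. In ATF3-CPT 32 keratin genes (58.2%) had one, against 74.1% of all. The ATF3-KO library had 0 keratin genes with a peak, against 9.29% of all genes, and no ATF3 peak in a keratin window overlapped an ATF3-KO peak, as 5.38% of all Ctrl peaks and 2.60% of all CPT peaks did. Keratin genes with a peak were thus below the share of all genes in each ATF3 library. The CPT count depended on the length of the list. With as many highest-scoring CPT peaks as Ctrl had, it was 16 (29.1%), the same number as in Ctrl, against 52.9% of all genes. With a score of at least 20 it was 15, against 48.5% of all genes.

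Keratin windows are short, with a median of 12.1 kb against 32.2 kb over all protein-coding genes. Among genes with windows of at most 20 kb, 12 of 50 keratins (24%) had a peak in ATF3-Ctrl against 37.9% of all such genes. In ATF3-CPT 27 of the 50 keratins (54.0%) had one against 53.6%. The keratin share therefore lay below that of genes of like length in Ctrl and near it in CPT. Per length of window, keratins held 3.74 peaks per 100 kb in Ctrl and 8.0 in CPT, where all protein-coding windows, most of them longer, held 1.58 and 3.24. In windows of at most 20 kb, keratins held 2.8 and 6.92 and all protein-coding genes 4.3 and 7.5, so the keratin density was the higher one against all windows and the lower one against windows of like length.

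By gene, 14 keratins had peaks in both ATF3-Ctrl and ATF3-CPT (all genes: 56.2%), 18 had peaks in CPT alone (all genes: 17.9%) and 2 in Ctrl alone (all genes: 1.26%). The 2 in Ctrl alone were KRT6B and KRT17. The chromosome 12 cluster had peaks at 9 of its 27 keratins in Ctrl and at 17 in CPT. The chromosome 17 cluster had them at 7 of 28 in Ctrl and at 15 in CPT. The shares of all genes with a peak were 57.5% in Ctrl and 74.1% in CPT. In both clusters the count of genes with a peak was higher in CPT. But with a CPT list as long as that of Ctrl, the counts were 9 and 7, as in Ctrl (all genes: 52.9%). The map of the clusters draws only peaks in keratin windows, so stretches between windows are empty by construction. Within the windows it shows tall peaks at some genes and none at others.

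**Figure D1:**
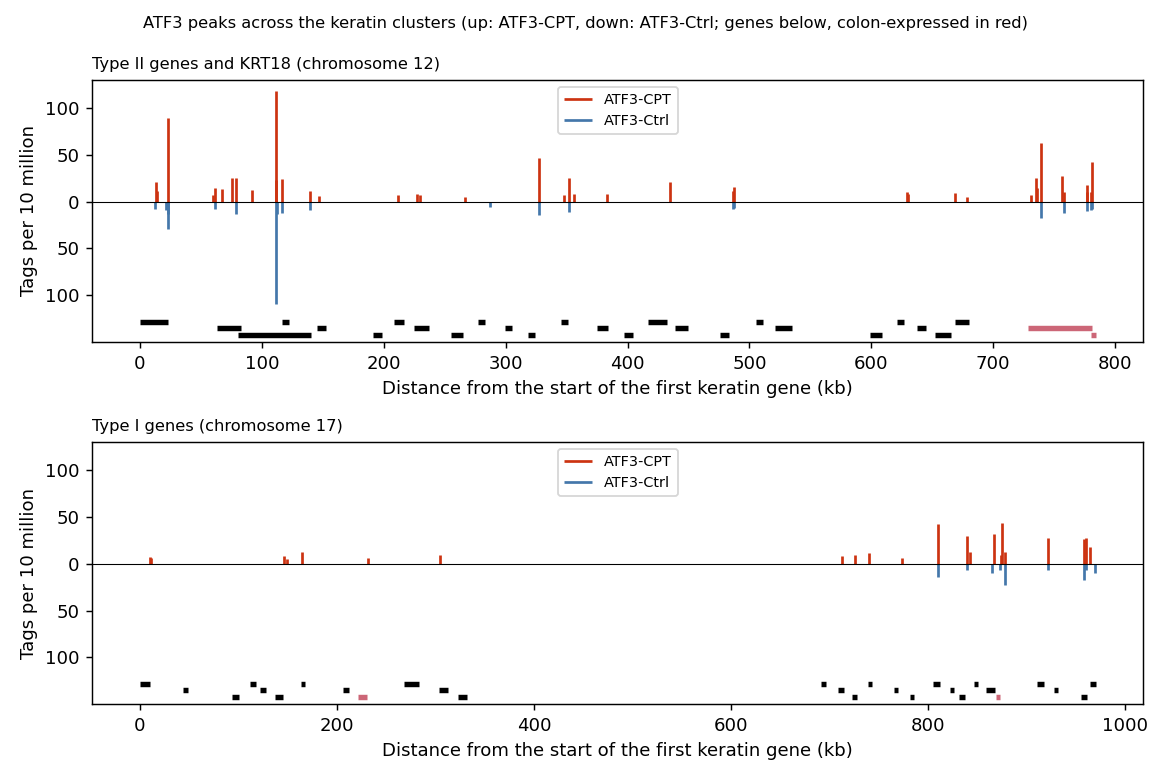
ATF3 peaks in keratin windows along the chromosome 12 cluster (top) and the chromosome 17 cluster (bottom), with the distance from the first keratin gene in kb on the x axis and the normalized tag count on the y axis, CPT upwards and Ctrl downwards. Black bars are keratin genes and red bars the colon-expressed ones. The KRT86 peak stands at 109.7 in Ctrl and 118.4 in CPT, and the chromosome 17 genes left of the long gap have no Ctrl peak.

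The colon-expressed keratins had a peak at 3 of 4 genes in ATF3-Ctrl and at 4 of 4 in ATF3-CPT, against 57.5% and 74.1% of all genes. With windows that begin at the TSS the counts were 3 in Ctrl and 2 in CPT, since the CPT peaks of KRT19 and KRT20 lay upstream. The Ctrl peaks of KRT18 were also counted for KRT8, and both Ctrl peaks of KRT19 lay in sequence with other copies in the genome. The other keratins had one at 13 of 51 genes (25.5%) in Ctrl and at 28 of 51 (54.9%) in CPT. In 81.8 kb of window, the colon-expressed genes held 7 peaks in Ctrl and 14 in CPT, which is 8.56 and 17.1 peaks per 100 kb. The others held 22 and 48 peaks in 698 kb, which is 3.15 and 6.88 per 100 kb. Both counts were thus higher at the colon-expressed group than at the others pooled. That group rests on 4 genes, and with 1 library per condition no test was made. The pooled others hide differences by role. Wound keratins held 9.63 peaks per 100 kb in Ctrl and 7.7 in CPT, with a peak at 80% of genes in Ctrl. KRT7, also of simple epithelia, held 8.11 and 20.3 per 100 kb, and the remaining roles were below the colon-expressed group in both libraries. The KRT8 window spans 57.8 kb because its outermost annotated start lies inside KRT18. With canonical transcripts the colon-expressed genes held 6 and 12 peaks in 45.7 kb, and the others 22 and 45 in 677 kb.

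**Figure D2:**
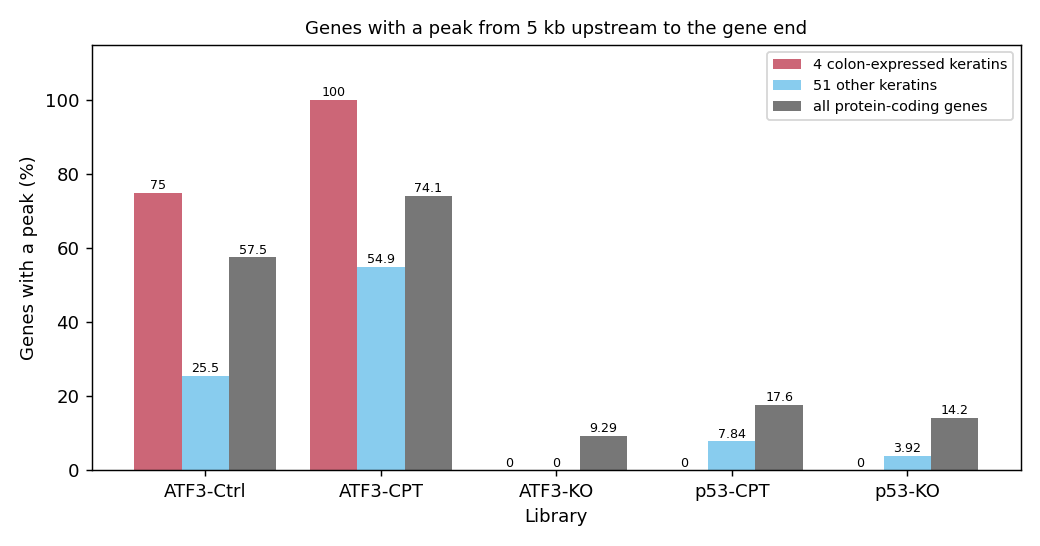
Percentage of genes with a peak from 5 kb upstream of the TSS to the gene end (y axis) in each of the 5 libraries (x axis), for 4 colon-expressed keratins, 51 other keratins and all 20163 protein-coding genes. The colon-expressed bars stand at 75% in ATF3-Ctrl and 100% in ATF3-CPT, each on 4 genes, and at 0 in the other libraries.

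KRT8 and KRT18, which form the first keratin pair of simple epithelia, lie next to each other and shared peaks. The highest peak of the pair, upstream of the canonical KRT8 start, was at 17 (95% interval 10.6 to 25.7) in Ctrl and at 62.8 (50.9 to 76.6) in CPT. The ratio was 3.69 (2.31 to 6.16). In intron 1 of KRT18, about 0.806 kb past its canonical start, a peak over a TGAGTCA core was at 7.7 (3.7 to 14.2) in Ctrl and 42.1 (32.5 to 53.6) in CPT. This ratio of 5.47 (2.78 to 11.9) was the highest among the shared keratin peaks. The centre of this CPT peak also lay 30 bp past the outermost annotated KRT8 start, which is inside KRT18.

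Other peaks of the pair differed less or were listed in one condition. The KRT18 promoter peak, 43 bp upstream of its first start in CPT, was at 8.5 in Ctrl and 10.4 in CPT, and the interval of its ratio included 1 (1.22, 0.531 to 2.9). A peak 2.8 kb upstream of KRT18 was at 10.0 and 18.1 (ratio 1.81, 0.904 to 3.79). The canonical KRT8 promoter, 43 bp upstream of its start, had a peak of 14.9 (9.43 to 22.3) in CPT and none in Ctrl. A CPT peak of 25.2 in intron 1 of KRT8 and one of 27.2 at 20.2 kb upstream of the canonical KRT8 start had no Ctrl peak either. In the other direction, a peak 21.9 kb upstream of the canonical KRT8 start was at 12.4 in Ctrl and 9.7 in CPT (ratio 0.782, 0.362 to 1.7). So the CPT list held more peaks around both genes, and of their 5 shared peaks 2 had ratio intervals above 1 and 3 had intervals that included 1.

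**Figure D3:**
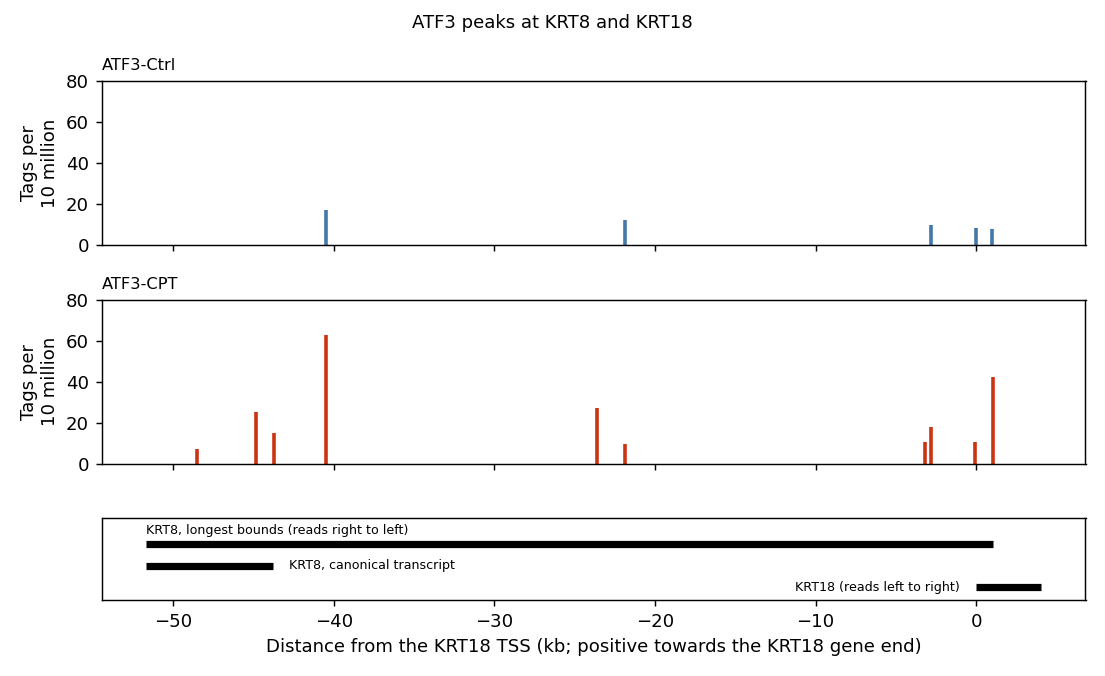
ATF3 peaks around KRT8 and KRT18 in Ctrl (top) and CPT (middle), with the distance from the KRT18 TSS in kb on the x axis and the normalized tag count on the y axis, and the extent of the genes (bottom). The 2 tallest CPT peaks, 62.8 and 42.1, stand at 17 and 7.7 in Ctrl.

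KRT19, a type I keratin without a fixed partner that is made in simple epithelia, had its highest CPT peak 2.04 kb upstream of the start, at 43.3 (33.6 to 55.0), over a TGAGTCA core. No Ctrl peak overlapped it. A second upstream peak, 4.87 kb before the start in Ctrl, was at 22.4 (15.0 to 32.2) in Ctrl and 12.9 (7.9 to 20) in CPT. Its ratio of 0.576 (0.31 to 1.06) was the lowest of the shared keratin peaks, and its interval included 1. This Ctrl sequence has 1759 other copies in the genome at 90% identity or more, so where its reads came from is uncertain. At the KRT19 start itself, Ctrl had a peak of 7.0 in exon 1 and CPT a peak of 9.1 at 79 bp upstream, with centres 367 bp apart. The exon 1 sequence has 2 other copies, of at most 90.3% identity, so its reads are uncertain too. KRT20, a keratin of differentiated intestinal epithelium, had a single CPT peak of 5.8 (9 tags, 2.66 to 11.1) and none in Ctrl. A level this near the threshold does not separate the libraries.

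**Figure D4:**
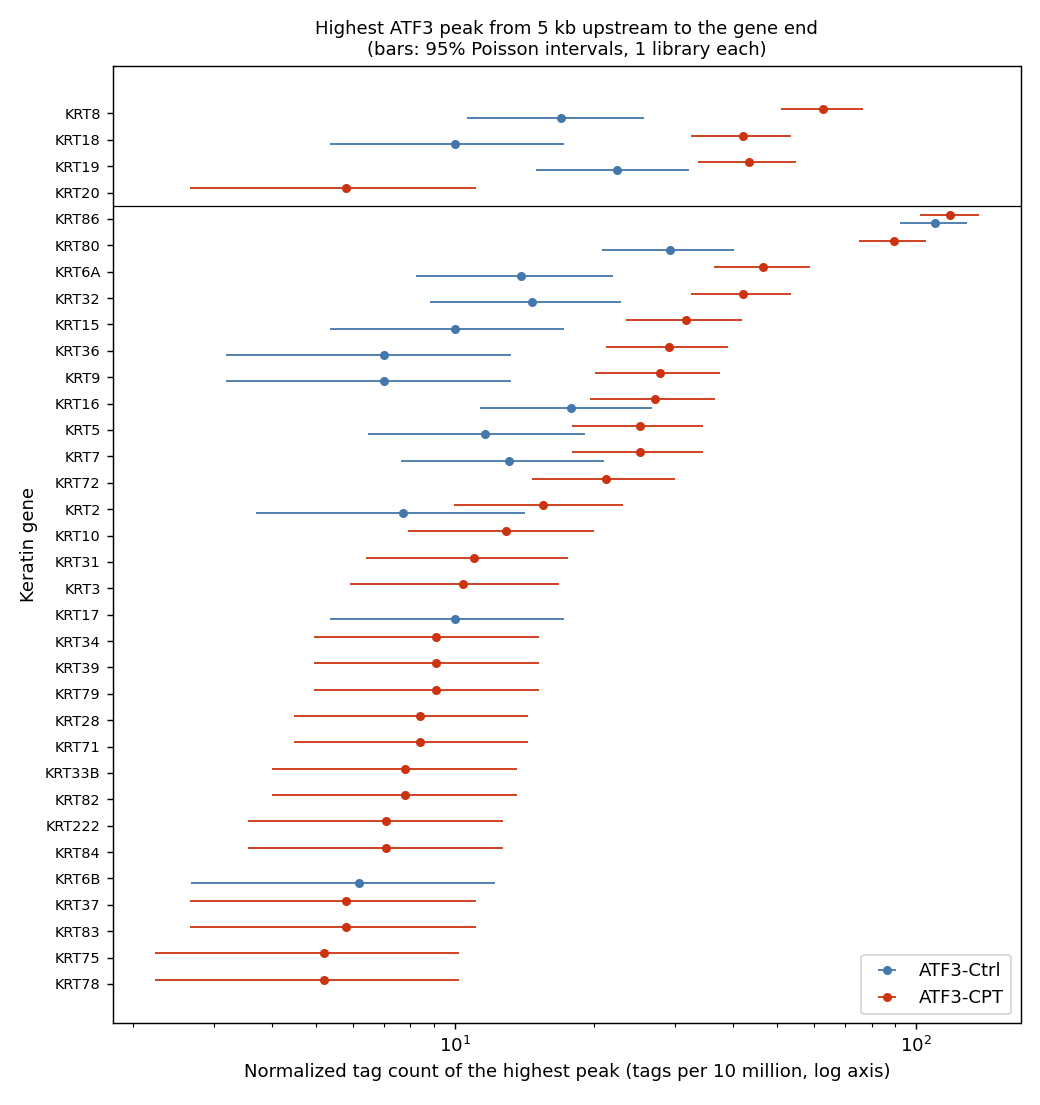
Highest ATF3 peak in the window of each of the 34 keratin genes with one, with the normalized tag count on a log x axis and the genes on the y axis, the colon-expressed genes above the line. Points are single libraries (blue Ctrl, red CPT) and bars 95% Poisson intervals. The highest peak of a gene can be a different site in each library. KRT86 has overlapping intervals, while the intervals of KRT80, KRT8, KRT6A, KRT32, KRT36 and KRT9 do not overlap. Those of KRT18, KRT19 and KRT15 do not overlap either, but they belong to different sites in Ctrl and CPT.

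KRT7, the other keratin of simple epithelia in the lists, is typical of ducts and glands. It had 2 peaks in Ctrl and 5 in CPT. Its highest CPT peaks, both at 25.2 (17.9 to 34.5), lay in introns 6 and 7. The intron 7 peak was at 13.1 (7.65 to 21.0) in Ctrl, a ratio of 1.92 (1.06 to 3.62), and the intron 6 peak was not listed in Ctrl. These intronic peaks also fell in the window of KRT86, which begins inside KRT7.

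Basal layer keratins, made by the dividing cells of the epidermis, had a peak at 2 of 3 genes in each of Ctrl and CPT (all genes: 57.5% and 74.1%). KRT5, the type II keratin of that layer, had a peak 0.95 kb upstream of its canonical start with a TGAGTCA core, at 11.6 (6.48 to 19.1) in Ctrl and 25.2 (17.9 to 34.5) in CPT. Its ratio was 2.17 (1.17 to 4.25). KRT15, a type I keratin of basal and hair follicle stem cells, had a Ctrl peak of 10.0 at 463 bp upstream of its canonical start. Its CPT peak of 31.7 (23.5 to 41.9), with a TGACTCA core, was 2.96 kb upstream of that start. The KRT15 peaks of Ctrl and CPT were thus different sites, 2495 bp apart.

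Wound keratins are induced in injured and hyperproliferative epidermis. They had a peak at 4 of 5 genes in Ctrl and at 2 of 5 in CPT (all genes: 57.5% and 74.1%). This was the only keratin role with fewer in CPT. The difference rests on KRT6B, with the lowest Ctrl keratin peak, and on KRT17, whose peak lies in copied sequence. KRT6A had a peak 3.4 kb upstream at 13.9 (8.24 to 22) in Ctrl and 46.6 (36.4 to 58.7) in CPT, a ratio of 3.35 (1.98 to 5.97). KRT16, the type I partner of KRT6A, had a peak 333 bp upstream of its canonical start in Ctrl, at 17.8 in Ctrl and 26.5 in CPT (ratio 1.49, 0.875 to 2.61). A second KRT16 peak, 2.81 kb upstream of the canonical start in Ctrl, was at 7.0 in Ctrl and 27.2 in CPT (ratio 3.89, 1.88 to 9.13). KRT17 had a peak of 10.0 (5.35 to 17.2) at 61 bp upstream of its canonical start in Ctrl alone, and KRT6B one of 6.2 (2.67 to 12.2) at 3.92 kb upstream. The KRT16 and KRT17 peaks have 3 or 4 other copies in the genome at 90% identity or more, so their reads cannot be assigned with certainty.

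Suprabasal keratins, of the differentiating layers of skin, cornea and mouth, had peaks at 2 of 12 genes in Ctrl and at 6 of 12 in CPT. The shares of all genes were 57.5% and 74.1%. With a CPT list as long as that of Ctrl, the CPT count was 3 of 12 (all genes: 52.9%). KRT9, of the palms and soles, had a peak 4.87 kb upstream with 2 AP-1 cores at 27.8 (20.1 to 37.5) in CPT. It was at 7.0 (3.18 to 13.2) in Ctrl, so the ratio was 3.97 (1.92 to 9.34). This KRT9 sequence has 3 other copies. KRT2, of the upper epidermis, had a peak 3.86 kb upstream at 7.0 in Ctrl and 15.5 in CPT (2.21, 1.0 to 5.46). KRT10, the main type I keratin of differentiating epidermis, had a CPT peak of 12.9 in its exon 7, KRT3, of the cornea, one of 10.4 upstream, and KRT79 one of 9.1 upstream. None of these 3 had a peak in Ctrl.

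Inner root sheath and companion layer keratins, of the hair follicle, had no peak at any of 9 genes in Ctrl and a peak at 4 in CPT. The shares of all genes were 57.5% and 74.1%. With a CPT list as long as that of Ctrl, the CPT count was 1 of 9 (all genes: 52.9%). The highest CPT peak was at KRT72, 21.3 (14.7 to 30) at 2.04 kb upstream of the canonical start. KRT71 and KRT28 each had a highest CPT peak of 8.4. Most of these values lay close to the threshold of 5.82.

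Hair and nail keratins had peaks at 3 of 17 genes in Ctrl and at 11 of 17 in CPT (all genes: 57.5% and 74.1%). With a CPT list as long as that of Ctrl, the CPT count was 3 of 17, as in Ctrl (all genes: 52.9%). The KRT86 peak in intron 2 was the highest of all keratin peaks, at 109.7 (92.4 to 129) in Ctrl and 118.4 (102 to 137) in CPT. Its level was above 99.1% of all Ctrl peaks and 99.3% of all CPT peaks. Its ratio of 1.08 (0.862 to 1.35) had the narrowest interval of the shared keratin peaks. The interval included 1 and lay below the median ratio of 1.8 over all shared ATF3 peaks. It was the only keratin peak with the C/EBP-ATF composite element, which 12.0% of all Ctrl peaks and 3.87% of all CPT peaks held. This element was searched after the sequence had been read.

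The other high hair keratin peaks differed between the libraries. KRT32 had a peak in intron 3 with a TGAGTCA core at 14.7 (8.84 to 22.9) in Ctrl and 42.1 (32.5 to 53.6) in CPT, a ratio of 2.86 (1.7 to 5.06). KRT36 had a peak 4.82 kb upstream of its canonical start with a TGACTCA core at 7.0 (3.18 to 13.2) and 29.1 (21.2 to 39.0), a ratio of 4.16 (2.02 to 9.74). Further hair keratins had CPT peaks without a Ctrl peak, at 11 for KRT31, 9.1 for KRT34 and KRT39, 7.8 for KRT33B and KRT82 and 7.1 for KRT84. These lower peaks held from 11 to 17 tags, and the KRT34 and KRT82 sequences have further copies in the genome.

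Of the 4 remaining keratins, KRT80 and KRT222 had ATF3 peaks. KRT80 is a type II keratin made in many epithelia, where it can lie at desmosomes. Its promoter peak over a TGAGTCA core was at 29.3 (20.8 to 40.3) in Ctrl, 359 bp upstream, and at 89.3 (75 to 105) in CPT, 334 bp upstream. The ratio was 3.05 (2.11 to 4.48). Ctrl also listed a KRT80 peak of 13.1 at 76 bp upstream, which had no overlapping CPT peak. Its centre was 258 bp from the centre of the CPT peak of 89.3. KRT222, a keratin-like gene, had CPT peaks of 7.1 and 5.8 and none in Ctrl.

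Over all keratin windows, 21 of the 29 Ctrl peaks (72.4%) overlapped a CPT peak, against 79.8% of all Ctrl peaks. Of the 62 CPT peaks, 41 (66.1%) overlapped no Ctrl peak, against 61.7% of all CPT peaks. The 41 had a median of 9.1 normalized tags and the 21 shared CPT peaks one of 25.2. Of the 41, 7 lay below the level of 6.95 that 9 tags stand for in Ctrl. At the 21 shared sites the median ratio was 1.93, against 1.8 over all 27104 shared sites. The ratio was at least 2 at 10 of them (47.6%), against 43.7% of all, and at most 0.5 at 0, against 2.45%. Intervals lay above 1 at 11 sites, below 1 at none, and included 1 at 10. These shares lay near those of all ATF3 peaks. The colon-expressed keratins had 2 of their 6 shared sites at a ratio of at least 2, and the others 8 of 15.

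**Figure D5:**
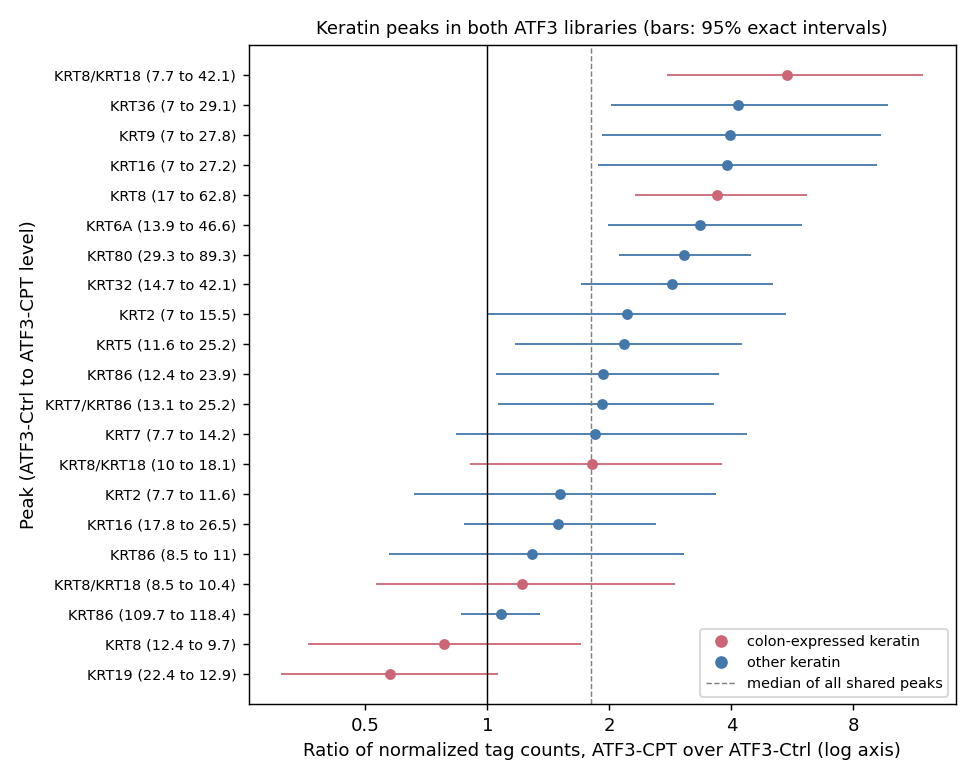
Ratio of the normalized tag count in ATF3-CPT to that in ATF3-Ctrl (log x axis) at the 21 keratin peaks found in both libraries (y axis, with both levels), with 95% exact intervals for counting error. Red points are colon-expressed keratins and blue points the others. Ratios run from 0.576 to 5.47, and both extremes are colon-expressed keratins.

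The AP-1 core was found in 8 of 29 keratin peaks in Ctrl (27.6%), against 31.0% of all Ctrl peaks, and in 25 of 62 in CPT (40.3%), against 40.6% of all CPT peaks. The ATF/CRE core (TGACGTCA, which is its own reverse complement) was in 0 keratin peaks of either library, where all peaks held it at 1.93% and 1.41%. Sequences of the same width 1000 bp away held either core at 2.07% (Ctrl) and 2.09% (CPT). Keratin CPT peaks with a core had a median of 18.1 normalized tags and those without one of 11.6. A lack of these exact letters in a peak, as in the KRT6A sequence above, says only that they are not in that window. Promoters, taken as 2 kb around a TSS, held 11 of the Ctrl keratin peaks (37.9%) against 21.5% of all Ctrl peaks, and 17 of the CPT keratin peaks (27.4%) against 16.8%. Keratin peaks were taken from short gene windows and all peaks from the whole genome, so these shares are not of like regions. In windows of at most 20 kb, promoters held 35.3% of the Ctrl and 33.3% of the CPT keratin peaks, against 73.3% and 68.3% of the peaks in all such windows.

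The share of keratins with a p53 peak was below that of all genes and near that of genes of like window length. In p53-CPT 4 of 55 keratin genes (7.27%) had a peak, against 17.6% of all genes, and in p53-KO 2 (3.64%), against 14.2%. Among genes with windows of at most 20 kb the shares were 6.0% of keratins against 5.38% of all such genes in p53-CPT, and 4.0% against 3.11% in p53-KO. Per 100 kb of window, keratins held 0.516 peaks in p53-CPT and 0.258 in p53-KO, where all protein-coding windows held 0.33 and 0.277. No keratin gene with a p53 peak was a colon-expressed one. No p53 peak in a keratin window overlapped an ATF3 peak, where 10.5% of all p53-CPT peaks overlapped an ATF3-CPT peak.

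The highest p53 peak was in intron 4 of KRT80, 15.8 kb past its start, at 91.5 (61.3 to 131) in p53-CPT. It was not listed in p53-KO, and it was the only keratin p53 peak with the p53 motif at 3 mismatches or fewer, which 20.3% of all p53-CPT peaks and 4.69% of all p53-KO peaks held. The stretch around this match (chr12:52569915-52570014, plus strand of GRCh37) is shown with the matched 20 bases in capitals.
KRT80 intron 4: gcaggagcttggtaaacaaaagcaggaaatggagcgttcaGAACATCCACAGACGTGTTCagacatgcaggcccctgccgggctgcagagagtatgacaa
KRT25, an inner root sheath keratin, had a peak of similar height in intron 3, at 88.3 (58.7 to 128) in p53-CPT, but it was also present in p53-KO at 65.5 (34.9 to 112). Over all peaks, 60.9% of the p53-CPT list overlapped a p53-KO peak and 71.2% of the p53-KO list a p53-CPT peak. KRT36 had a p53-CPT peak of 41.0 (21.8 to 70.1) and KRT40, a hair keratin, one of 22.1 (8.88 to 45.5), while KRT9 had a p53-KO peak of 30.2 (11.1 to 65.8). The KRT40 and KRT9 peaks were at the thresholds of their libraries.

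Keratin filaments are anchored at desmosomes, and a list of 16 desmosome and linker genes was read in the same way. ATF3 peaks were found at 15 of them in Ctrl and at 14 in CPT (all genes: 57.5% and 74.1%), with windows of 49.5 kb in the median, longer than those of the keratins and of all genes. The highest-scoring peaks in CPT were at PLEC (113.9), which links filaments to the membrane, DST (87.3), a linker of the same family, and DSC3 (83.5), a desmosomal cadherin. In Ctrl these were at 45.6, 54.1 and 34.0, and DSG2, another desmosomal cadherin, was among the highest 3 with 52.5. PLEC also had a peak of 11.7 in ATF3-KO, and it overlapped the highest PLEC peak of Ctrl and CPT. It was the only gene of the 16 with a peak in ATF3-KO (6.25%, all genes: 9.29%). p53-CPT had peaks at 3 of the 16 (18.8%, all genes: 17.6%), JUP (101.0), DST (18.9) and PKP1 (25.2). Of these, DST lay below and PKP1 near the 22.1 that the p53-CPT threshold stands for. p53-KO had a peak at 1 (6.25%, all genes: 14.2%), DST (40.3), at a different site from the DST peak of p53-CPT.

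Of 15 intermediate filament genes that are not keratins, 9 had a peak in Ctrl (60.0%) and 10 in CPT (66.7%), near the 57.5% and 74.1% of all genes. The highest-scoring in CPT were at INA (104.8), a neuronal filament protein, LMNA (91.9), a nuclear lamin, and VIM (60.2), the filament protein of mesenchymal cells. In Ctrl these were at 30.9, 32.4 and 24.7, and LMNB2 and BFSP1, each at 34.0, were among the highest 3. In ATF3-KO 1 gene had a peak (6.67%, all genes: 9.29%), LMNB2 at 10.9. That peak overlapped the highest-scoring LMNB2 peak of Ctrl and of CPT. In p53-CPT 1 gene had a peak (6.67%, all genes: 17.6%), LMNA at 88.3. Per 100 kb of window, the desmosome and linker genes held 4.46 and 8.85 ATF3 peaks in Ctrl and CPT and the other filament genes 5.31 and 7.77, beside 3.74 and 8.0 for keratins.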

How the data were processed

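Peaks of ATF3 and p53 were measured by ChIP-seq in 5 libraries of HCT116 cells, 1 per condition. The submitters' processing notes name BWA 0.6.1, HOMER 4.1 and hg19. Per the file headers, the authors called peaks in each library separately with findPeaks and no input control, keeping those with an FDR under 0.001, 4-fold local enrichment and a local p under 1e-04. Peak heights were taken from the signal deposited by the authors, the tag count scaled to 10000000 tags, from which whole tags were recovered. The authors' deposited score counts each position once and is not scaled to depth. The deposited fold and p-value of each peak, the focus ratio (a fraction of tags near the centre) and the clonal fold were not used.

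Keratin genes came from GENCODE 44 lifted to GRCh37. A peak belonged to a gene when it overlapped its window by 1 bp or more, and library peaks were called shared on the same overlap, each Ctrl peak being set against the highest-scoring CPT peak that overlapped it. Intervals are exact Poisson (levels) and exact conditional binomial (ratios of tags, scaled to depth), at 95%. They cover counting error only, as PCR reads are not independent molecules. Motifs were searched on both strands, and copies with blastn 2.17.0 at 90% identity over 50% of the peak or more. The scripts were tested on simulated data. The members, the role lists and the colon-expressed group were chosen with earlier results of these data known. Genes were named by a rule of the 30 highest-scoring keratins with a peak. KRT6B and KRT40 were named in addition, after their values were seen, to complete small counts, and the plot of highest peaks shows all 34. No test was made between conditions. Alternatives changed the window, gene bounds, score minimum, overlap rule and motif rule. The sequence under 1 KRT8 peak is not reported here.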

Additional observations from a re-analysis of the deposited data

How the results depend on the processing

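Of 134 values under alternatives, 109 moved by at most 1.5 times and 25 by more. The 109 include the empty counts of ATF3-KO and of colon-expressed keratins in the p53 libraries. They also include ATF3 counts without knockout peaks, which could not change because no such keratin peak overlapped one. The tally therefore overstates stability, and a score of at least 20 moved 12 of its 20 values. With windows from the TSS (0 kb upstream), keratin genes with a peak numbered 10 in Ctrl and 20 in CPT (all genes: 48.3% and 64.8%), peaks 18 and 37, the other keratins 7 and 18, and the colon-expressed genes 3 and 2. With a score of at least 20, genes numbered 6 in Ctrl, 15 in CPT, 1 in p53-CPT and 0 in p53-KO. The shares of all genes were then 23.2%, 48.5%, 4.82% and 3.34%. Peaks numbered 6, 30, 1 and 0, and the other keratins 4, 12, 1 and 0. With as many highest-scoring CPT peaks as the Ctrl list held, CPT had 16 genes (all genes: 52.9%), 33 peaks and 13 other keratins. The Ctrl count was also 16 genes. Windows of at most 20 kb, an alternative chosen after seeing the data, left 17 Ctrl peaks. At 1 mismatch, 22 Ctrl and 51 CPT keratin peaks held a core, beside 67.3% and 77.2% of all peaks. These alternatives drop or add peaks by construction. Canonical transcripts, windows from 10 kb upstream, peak centres in place of overlap and peaks without those of knockout cells moved no count by more than 1.5 times, with 10 kb giving 6 genes in p53-CPT and 3 in p53-KO.

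With 1 library per condition, no difference between libraries has a replicate check, and no paired analysis was possible because every group has 1 sample. ATF3-CPT was sequenced deeper than ATF3-Ctrl. The p53 libraries held from 1984941 to 3169743 tags, so 3 tags correspond to 9.46 (p53-CPT) and 15.1 (p53-KO) normalized tags, and weak p53 binding was not detectable. Peaks in copied keratin sequence, 6 of 29 in Ctrl and 9 of 62 in CPT, are uncertain.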
